A study of Mus musculus with 6 samples.

Results

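The E2F transcription factors and the retinoblastoma pocket proteins were followed in mouse long-term hematopoietic stem cells (LT-HSCs) from mice labelled wild type or Mel18 knockout. The 8 genes E2f1, E2f2, E2f3, E2f4, E2f8, Rb1, Rbl1 and Rbl2 were taken by symbol from a deposited table of 13935 genes. All 8 were listed, and all 8 passed the filter on low counts that left 12603 genes for testing. E2f1, E2f8 and Rbl1 had lower levels in every library labelled knockout than in any wild-type library, E2f4 and Rbl2 had nearly equal group means, and E2f2, E2f3 and Rb1 had overlapping groups with wide spread. Of all tested genes, 11.3% were likewise lower with no overlap. None of the 8 passed edgeR's quasi-likelihood test over all genes, while E2f1 and E2f8 passed in DESeq2 and in edgeR's likelihood ratio test. Over all genes these tests called 0.143%, 4.4% and 3.43% in that order, in either direction.

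LT-HSCs are scarce cells at the top of the blood lineage that can rebuild and maintain it. Per the labels, 3 libraries came from wild-type mice (replicates 1 to 3) and 3 from mice with Mel18 knocked out (replicates 4 to 6), 1 numbered mouse each. All were primary cells of bone marrow, which the sample labels call stem and progenitor cells and the deposited table calls LT-HSCs. Pcgf2 encodes Mel18, a Pcgf subunit of polycomb repressive complex 1, and the series description calls the knockout conditional and specific to the blood system. The deposited table heads its own comparison Cre+ against Cre-, and where Cre+ marks the knockout libraries, recombinase and gene loss cannot be told apart. The promoter that drives Cre, the exons removed, the marker gate of the sort, and the strain, age and sex of the mice do not appear in the labels.

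E2F factors bind DNA as dimers with a DP partner and control genes for entry into and passage through S phase. In quiescent cells the pocket proteins RB (Rb1), p107 (Rbl1) and p130 (Rbl2) hold E2Fs in check, and cyclin-dependent kinases release them by phosphorylating the pocket proteins. E2F1, E2F2 and E2F3 are known as activators, E2F4 acts mostly as a repressor with p107 or p130 in the DREAM complex, and E2F8 is an atypical repressor that needs neither a DP partner nor a pocket protein. E2f1, E2f2, E2f8 and Rbl1 are themselves known E2F target genes, and blood stem cells that lack all 3 pocket proteins are known to leave quiescence.

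In the deposited annotation (build mm10), the activator genes are E2f1 on chromosome 2 from 154559400 to 154569892, E2f2 on chromosome 4 from 136172274 to 136196056 and E2f3 on chromosome 13 from 29906575 to 29986063. The repressor genes are E2f4 on chromosome 8 from 105297663 to 105305370 and E2f8 on chromosome 7 from 48866429 to 48881041. The pocket protein genes are Rb1 on chromosome 14 from 73195502 to 73325791, Rbl1 on chromosome 2 from 157145894 to 157204534 and Rbl2 on chromosome 8 from 91070057 to 91123844. Counts cover all exons of each gene, so isoforms from different starts are summed.

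Because several of these genes are known to be under E2F control themselves, the sequence at their starts is shown for 4 of them. RefSeq promoter windows (build GRCm38.p6, from 250 bases before to 50 bases after a gene's start, 300 bases in all) were matched by symbol for 6 of the 8 genes, and E2f4 and Rb1 were not matched. Capitals mark, on either strand, an E2F site (TTTCCCGC, TTTGGCGC, TTTCGCGC or TTTGCCGC), a cell cycle homology region, CHR (TTTGAA), or a CCAAT box (CCAAT). Positions count from 1 at the gene's start, with -1 as the base before it. Each sequence reads 5′ to 3′ on the gene's strand.
Rbl1, chr2:157204485-157204784, minus strand: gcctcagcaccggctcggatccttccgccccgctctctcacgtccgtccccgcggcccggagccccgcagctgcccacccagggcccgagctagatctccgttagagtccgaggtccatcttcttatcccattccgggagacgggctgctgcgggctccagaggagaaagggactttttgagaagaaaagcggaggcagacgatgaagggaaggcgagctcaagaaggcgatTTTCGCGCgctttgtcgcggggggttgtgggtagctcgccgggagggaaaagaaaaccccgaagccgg
E2f2, chr4:136172024-136172323, plus strand: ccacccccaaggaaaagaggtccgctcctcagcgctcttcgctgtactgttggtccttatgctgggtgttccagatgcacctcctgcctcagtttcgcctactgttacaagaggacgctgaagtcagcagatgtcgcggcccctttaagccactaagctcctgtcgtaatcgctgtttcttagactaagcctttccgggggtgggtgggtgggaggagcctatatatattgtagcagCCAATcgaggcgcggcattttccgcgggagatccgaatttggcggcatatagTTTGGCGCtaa
E2f3, chr13:29986014-29986313, minus strand: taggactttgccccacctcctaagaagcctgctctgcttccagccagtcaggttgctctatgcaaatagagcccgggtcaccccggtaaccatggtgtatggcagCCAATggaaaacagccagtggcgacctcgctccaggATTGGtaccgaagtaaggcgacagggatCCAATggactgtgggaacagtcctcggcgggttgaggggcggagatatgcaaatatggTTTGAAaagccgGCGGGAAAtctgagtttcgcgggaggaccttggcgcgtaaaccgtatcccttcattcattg
E2f8, chr7:48881547-48881846, minus strand: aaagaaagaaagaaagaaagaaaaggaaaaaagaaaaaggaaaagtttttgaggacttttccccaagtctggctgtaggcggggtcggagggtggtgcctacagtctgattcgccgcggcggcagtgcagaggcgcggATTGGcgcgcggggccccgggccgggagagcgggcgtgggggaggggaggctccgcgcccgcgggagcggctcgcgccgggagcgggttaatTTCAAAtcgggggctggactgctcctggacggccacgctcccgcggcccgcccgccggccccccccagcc
Rbl1 held TTTCGCGC at -18 to -11, E2f2 held TTTGGCGC at 40 to 47, and E2f3 held TTTCCCGC on the opposite strand at -11 to -4. E2f8 held no E2F site of these letters, a CCAAT box on the opposite strand at -112 to -108 and a CHR on the opposite strand at -20 to -15.

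An E2F site of these letters was thus present for 3 of the 6 genes with a window, against 2.6% of all 27025 genes with a window and 2.26% of all 32851 windows. A CHR was present for 4 of the 6 (E2f2, E2f3, E2f8 and Rbl2), against 20.2% of all genes, and a CCAAT box for 3 (E2f2, E2f3 and E2f8), against 41.1%. For E2f2 the CHR lay in a second window, further inside the gene. The gene start of the E2f1 window (position 1) lies 466 bases inside the gene as deposited. That of the E2f8 window lies 555 bases before the deposited 5′ end, and neither window covers the start used for counting. A match of letters is a description and does not show that a factor binds.

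Total counts per library were 26469336 to 30950057 in wild type and 33537679 to 37180701 in knockout, and levels are in CPM, counts over the library total scaled by TMM. A floor of 3 counts is 0.0807 to 0.113 CPM of the unscaled total, for counting error only. Pcgf2 itself overlapped between the labelled groups (1.93 ± 0.600 and 2.37 ± 0.858 CPM, SD, n = 3 each), and gene-wide counts cannot tell exons that were deleted from those that remain. Every direction below is therefore between libraries by their labels. Knockout replicate 6 stood apart from the other 5 libraries, with a first principal component score of 167 against -71.6 to 7.75 (log2 CPM of all tested genes). It also lacked genes that all others held: of 8678 genes with at least 200 counts in each of the other 5 libraries, 92 had at most 10 counts in knockout replicate 6 (1.06%), against 0 to 7 genes for any other library tested the same way. The label of knockout replicate 6 ends in S37, where those of the other 5 end in S6 to S10. What these numbers stand for is not stated. At a Benjamini-Hochberg adjusted p below 0.05, edgeR's quasi-likelihood test called 18 of 12603 genes (0.143%), 2 higher (0.0159%) and 16 lower (0.127%) in knockout. Without knockout replicate 6 the calls were 49 of 13142 (0.373%), with 0.0152% higher and 0.358% lower, and without any one of the other libraries there were 0 to 4.

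Of the 8 genes, 0 were called in that test. At an unadjusted p below 0.05 there were 3 of 8 (E2f1, E2f8 and Rbl1), all lower, against 6.51% of all genes lower, 5.36% higher and 11.9% in either direction. These p-values measure the spread between 3 mice a group. DESeq2 called 2 of 8 (E2f1 and E2f8) as lower, against 2.71% of genes lower, 1.69% higher and 4.4% in either direction. EdgeR's likelihood ratio test called the same 2, against 2.29% of genes lower, 1.14% higher and 3.43% in either direction. Limma-voom called 0, as it did over all genes (0%), with 3 of 8 and 14.1% of all genes at an unadjusted p below 0.05. The groups did not overlap for 3 of 8, all lower, where 11.3% of all genes did so. All 8 were fitted lower, against 50.4% of all genes, with a median log2 fold change of -0.91 against -0.01. Without knockout replicate 6 these medians were -0.71 and -0.02. E2f4 was fitted higher without wild-type replicate 2, knockout replicate 5 or knockout replicate 6, and Rbl2 without wild-type replicate 3 or knockout replicate 6. Markers of multipotent and lineage-primed progenitors, which divide more often than LT-HSCs, moved with the groups, summing to 6357 to 14970 CPM in wild type and 524 to 1673 in knockout. Mpo had the most of the wild-type sums (3672 to 8710 CPM, against 16.9 to 342 in knockout). Of the 10 markers 7 did not overlap between groups, while Cd34, Flt3 and Prtn3 did. The part of these progenitor cells in the differences described here was not tested, and in bulk libraries fewer cells of a type and less RNA per cell cannot be told apart. In the authors' deposited table the 8 log2 fold changes were all negative, from -1.03 (E2f8) to -0.11 (E2f4), each with an adjusted p of 1. All but those of E2f4 and Rbl2 were smaller in size than in the fit here. E2f1 was at -0.65 there against -1.13 here, and E2f8 at -1.03 against -1.83. Which libraries and filters the authors used for that comparison is not stated.

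**Figure D1:**
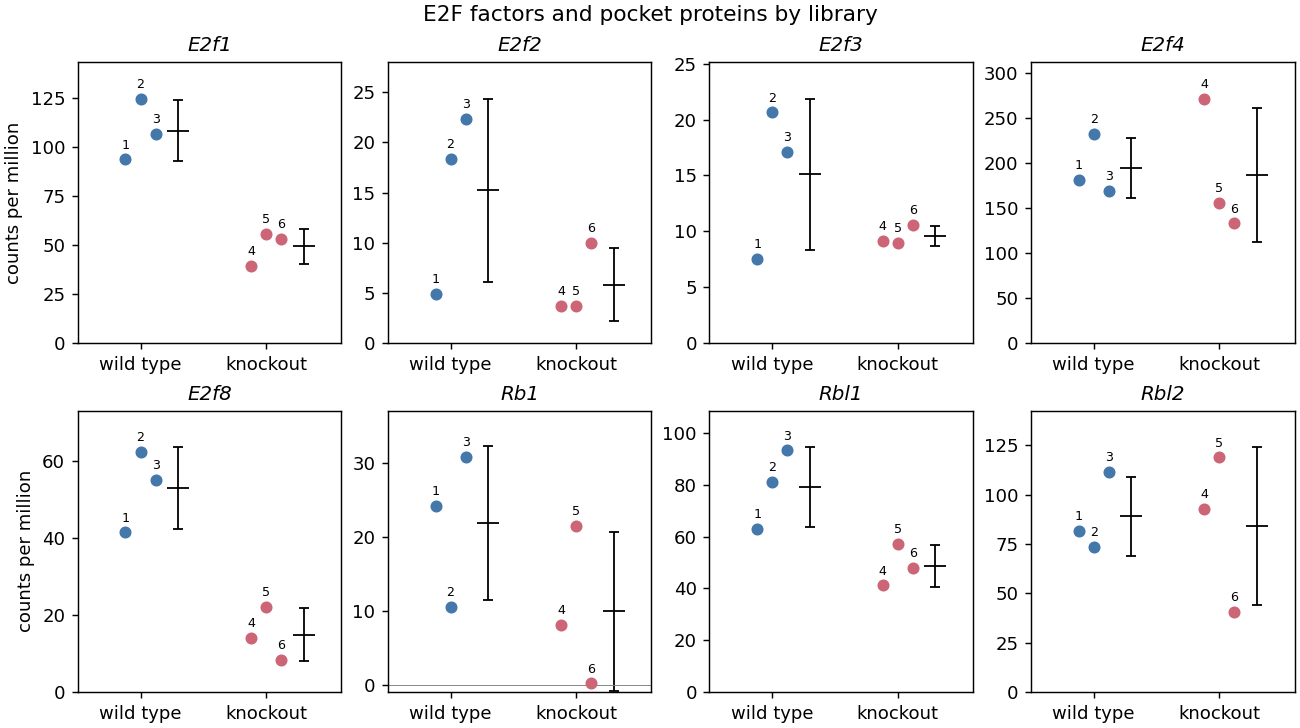
Level of each gene in CPM, on a separate linear axis per gene, for 3 wild-type (blue) and 3 knockout (red) libraries. Numbers are replicates and black bars are mean ± SD. E2f1, E2f8 and Rbl1 show no overlap between groups, and Rb1 of knockout replicate 6 lies close to 0.

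E2f1, the first activator E2F to be described and a driver of S phase genes, had 2730, 3246 and 3376 counts in wild-type replicates 1 to 3 and 1510, 2138 and 1694 in knockout replicates 4 to 6. On the CPM scale these were 93.6, 125 and 106 against 39.4, 55.8 and 53.3. The lowest wild-type library lay above the highest knockout library, so the groups did not overlap. Its log2 fold change of -1.13 (SE 0.25) gave adjusted p = 0.144 by edgeR's quasi-likelihood test and adjusted p = 0.00845 by DESeq2. It lay between -1.24 and -0.99 when any of the 6 libraries was left out.

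E2f2, an activator that is abundant in maturing red cell precursors, stood at 4.94, 18.4 and 22.3 CPM in wild type and 3.75, 3.71 and 9.996 CPM in knockout. Wild-type replicate 1 lay within the knockout range, and the other two wild-type libraries lay above it. Its log2 fold change was -1.39 (SE 0.74, adjusted p = 0.508 by edgeR's quasi-likelihood test). It ranged from -2.03 without knockout replicate 6 to -1.03 without wild-type replicate 3.

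E2f3, an activator with a pair of promoters, had 7.58, 20.6 and 17.1 CPM in wild type and 9.15, 8.95 and 10.6 CPM in knockout. The 3 knockout libraries lay close together, between wild-type replicate 1 and the other two wild-type libraries. The log2 fold change was -0.66 (SE 0.53), not past the test (adjusted p = 0.685, edgeR's quasi-likelihood test). It ranged from -0.98 without wild-type replicate 1 to -0.37 without wild-type replicate 2.

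E2f4, the main E2F of quiescent cells and a subunit of DREAM, had 182, 233 and 170 CPM in wild type and 272, 156 and 133 CPM in knockout. Knockout replicate 4 was the highest of all 6 libraries and knockout replicate 6 the lowest, so the knockout libraries enclosed the wild-type range. The log2 fold change of -0.06 (SE 0.31) was smaller than its error, and leaving out libraries moved it between -0.43 and 0.13.

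E2f8, the atypical repressor whose level peaks late in S phase, had 1209, 1625 and 1746 counts in wild type and 542, 849 and 267 in knockout, or 41.4, 62.3 and 55.0 against 14.1, 22.2 and 8.39 CPM. The groups did not overlap, and knockout replicate 6 was the lowest library. On the log2 scale knockout minus wild type was -1.83 (SE 0.43; adjusted p = 0.152 by edgeR's quasi-likelihood test and 0.00559 by DESeq2), and -1.54 without knockout replicate 6. Over 13.5% of its exon bases E2f8 overlaps exons of Gm2788 on the opposite strand, and the libraries do not mark strand, so reads there cannot be assigned.

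Rb1, which encodes RB itself, had 706, 274 and 980 counts in wild type and 310, 823 and 6 in knockout. The level in CPM was 24.2, 10.5 and 30.9 against 8.08, 21.5 and 0.189. The 6 counts of knockout replicate 6 give an exact 95% interval of 0.0657 to 0.389 CPM of the unscaled total, so that library lay below the other 5 beyond counting error. Wild-type replicate 2 and knockout replicate 4 were close to each other, and knockout replicate 5 lay within the wild-type range. With its wide spread, the log2 fold change was -1.14 (SE 1.17) with all libraries and -0.57 without knockout replicate 6, and it was -2.39 without knockout replicate 5 and -2.38 in limma-voom. Rb1 is among the 92 genes nearly missing from knockout replicate 6.

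Rbl1, which encodes p107 and is itself a known E2F target, had 1832, 2116 and 2958 counts in wild type and 1576, 2186 and 1520 in knockout. Scaled to CPM these were 62.8, 81.2 and 93.2 against 41.1, 57.0 and 47.8. The groups did not overlap, but wild-type replicate 1 lay close to knockout replicate 5. The log2 fold change of -0.70 (SE 0.27) gave an unadjusted p of 0.0325 by edgeR's quasi-likelihood test, 0.363 once adjusted, and an adjusted p of 0.258 by DESeq2. It lay between -0.85 and -0.58 when a library was left out.

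Rbl2, which encodes p130, the pocket protein of resting cells, had 81.7, 73.5 and 112 CPM in wild type and 92.9, 119 and 40.6 CPM in knockout. Knockout replicates 4 and 5 lay in or above the wild-type range and knockout replicate 6 below it. The log2 fold change was -0.08 (SE 0.39), and 0.25 without knockout replicate 6. Exons of Aktip and Gm45464 overlap 16.8% of the exon bases of Rbl2 on the opposite strand. Aktip was at 29.4 to 43.2 CPM in wild type and 34.4 to 48.9 CPM in knockout.

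**Figure D2:**
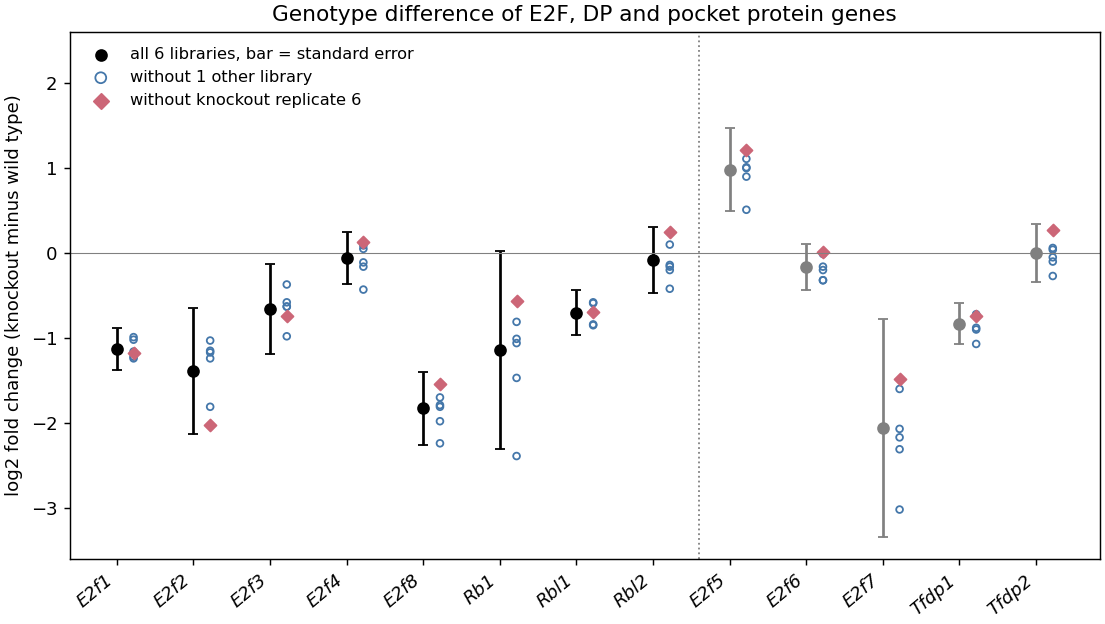
Log2 fold change, knockout minus wild type, of the 8 genes (black) and of the remaining E2F and DP genes (grey, right of the dotted line), with standard errors. Open circles leave out 1 other library each and red diamonds leave out knockout replicate 6, which moves E2f4 and Rbl2 above 0 and Rb1 to -0.57.

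The remaining E2F and DP genes showed both directions, and 0 of 5 were called in edgeR's quasi-likelihood test (1 of 5 at an unadjusted p below 0.05, and 1 in DESeq2, Tfdp1). The matching shares of all genes, in either direction, were 0.143%, 11.9% and 4.4%. Tfdp1, the main DP partner, averaged 391 ± 47.3 and 220 ± 55.7 CPM (log2 fold change -0.83, SE 0.24), with no overlap. E2f7, the atypical repressor paired with E2F8, had 15.1, 37.7 and 20.6 CPM in wild type and 5.97, 11.6 and 0.0314 CPM in knockout. The last of these is 1 count in knockout replicate 6, and without that library the log2 fold change of E2f7 was -1.48 in place of -2.06 (SE 1.28). It was -3.02 without knockout replicate 5 and -3.69 in limma-voom. E2f5, a relative of E2F4 that binds p130, ran the other way, with 10.01, 8.63 and 10.2 CPM in wild type and 15.3, 29.1 and 12.4 CPM in knockout. Every knockout library exceeded every wild-type library for E2f5, as for 10.1% of all genes, but its log2 fold change of 0.98 (SE 0.49) did not pass edgeR's quasi-likelihood test (adjusted p = 0.482) and was 0.51 without knockout replicate 5. E2f6, a repressor found in a variant polycomb complex, and Tfdp2 overlapped between groups (log2 fold changes -0.16 and 0.00, SE 0.27 and 0.34).

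To compare levels between genes, CPM was divided by the summed exon length. E2f4 had the highest level per kilobase of the 8 genes in all 6 libraries, at 97.7 ± 16.8 CPM per kilobase in wild type and 93.9 ± 37.3 in knockout (SD, n = 3 each). In wild type E2f1 followed at 34.9 ± 5.01, then Rbl2 (18.1 ± 4.07), Rbl1 (14.6 ± 2.83), E2f8 (14.3 ± 2.87), Rb1 (4.73 ± 2.25), E2f2 (3.04 ± 1.82) and E2f3 (2.82 ± 1.26). Libraries of Rbl2, Rbl1 and E2f8 overlapped between neighbours in that order, as did those of Rb1, E2f2 and E2f3, while E2f1 stood clear of both its neighbours. In knockout E2f1, at 16.0 ± 2.85, no longer stood clear of Rbl2, at 17.1 ± 8.09, and E2f8, at 4.04 ± 1.87, overlapped Rb1, at 2.14 ± 2.33.

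The make-up of each pool within a library does not depend on how libraries are scaled. E2f1 made up 14.9%, 16.5% and 17.97% of the summed level per kilobase of all 8 E2F genes (E2f1 to E2f8) in wild type, and 5.80%, 10.6% and 13.2% in knockout. E2f8 made up 5.53% to 7.80% in wild type and 1.74% to 3.54% in knockout, and neither gene's shares overlapped between groups. Shares of E2f7 did not overlap either, at 1.36% to 2.83% in wild type and 0.0044% to 1.25% in knockout. Those of E2f5 did not overlap and were higher in knockout, at 3.98% to 9.82% against 2.03% to 3.06%. E2f4 held 44.6% to 48.1% of the pool in wild type and 46.1% to 62.3% in knockout. The E2f1 to E2f4 ratio was 0.331, 0.344 and 0.403 in wild type and 0.0931, 0.230 and 0.257 in knockout. The 3 activators together came to 0.318, 0.357 and 0.419 of the 2 repressors E2f4 and E2f8 in wild type, and to 0.108, 0.243 and 0.306 in knockout. These ratios were lower in every knockout library, with knockout replicate 4, the library with the most E2f4, the lowest, and they were not tested.

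Among pocket proteins Rbl2 made up 46.4% to 49.6% of the summed level per kilobase in wild type and 66.9%, 61.4% and 48.2% in knockout replicates 4, 5 and 6. The Rbl1 to Rbl2 ratio was 0.699, 1.00 and 0.760 in wild type. In knockout it was 0.402 and 0.437 in replicates 4 and 5, below all wild-type libraries, but 1.07 in replicate 6, above them all. The Rb1 to Rbl1 plus Rbl2 ratio overlapped between groups, at 0.0760 to 0.186 in wild type and 0.00239 to 0.134 in knockout. The pocket protein ratios therefore did not separate the genotypes.

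**Figure D3:**
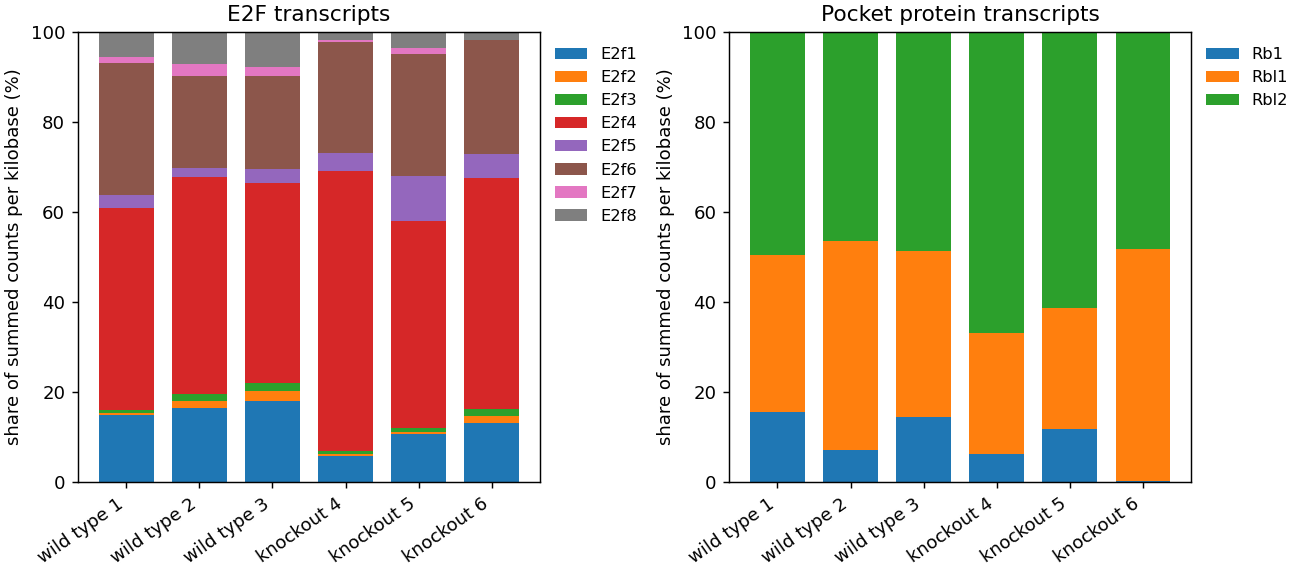
Share of each gene, in percent, in the summed CPM per kilobase of the 8 E2F genes (left) and of the 3 pocket protein genes (right), for each library. E2f4 is the largest E2F share in all 6 libraries, E2f1 holds 14.9% to 17.97% in wild type and 5.80% to 13.2% in knockout, and Rb1 is nearly absent from knockout replicate 6.

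Genes that act with or under these factors were counted in lists whose composition draws on textbook knowledge. The lists were also chosen with earlier results of these data known, so their counts are descriptive. The MuvB core genes, listed with Mybl2 and Foxm1, whose proteins bind MuvB to activate mitotic genes, had 5 of 7 members fitted lower (median -0.57). None was called in edgeR's quasi-likelihood test, 2 had an unadjusted p below 0.05, and DESeq2 and the likelihood ratio test each called 1. Among all genes 50.4% were fitted lower, and 0.143%, 11.9%, 4.4% and 3.43% met these criteria in turn, in either direction. Mybl2, which encodes B-Myb and is a known E2F target, averaged 126 ± 17.6 and 26.7 ± 11.8 CPM (log2 fold change -2.23, SE 0.36). In edgeR's quasi-likelihood test its adjusted p was 0.0762, and it passed without knockout replicate 6 (-1.96, adjusted p = 0.0491). Mybl2 did not pass that test when any other library was left out (adjusted p from 0.0696 to 0.371). Foxm1 overlapped between groups (51.5 ± 17.0 and 17.5 ± 13.6 CPM). The 5 core genes had log2 fold changes from -1.08 (Lin54) to 0.17 (Lin52), with no call in edgeR's quasi-likelihood test or in DESeq2.

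Upstream of the pocket proteins, 7 of 9 genes for their kinases and cyclins were fitted lower (median -0.21), 0 were called in edgeR's quasi-likelihood test, 2 had an unadjusted p below 0.05, and DESeq2 and the likelihood ratio test each called Cdk6 and Ccna2. For this and the next 2 lists, the shares of all genes in either direction were 0.143%, 11.9%, 4.4% and 3.43% in that order. Of all genes 50.4% were fitted lower. Cdk6, a kinase of RB, averaged 109 ± 24.6 and 52.8 ± 9.78 CPM (log2 fold change -1.04, SE 0.27). Ccna2, the S phase cyclin and a known E2F target, averaged 154 ± 23.1 and 42.3 ± 36.3 CPM (log2 fold change -1.86, SE 0.54). Leaving out knockout replicate 5 moved Ccna2 to -2.87, and leaving out knockout replicate 6 moved it to -1.52. Of 5 tested inhibitors of these kinases, 0 were called in edgeR's quasi-likelihood test, and Cdkn1a and Cdkn1c were called by DESeq2 in opposite directions (log2 fold changes -1.69, SE 0.39, and 2.30, SE 0.64). For Cdkn1c this became 3.16 when wild-type replicate 2 was left out and 1.84 when wild-type replicate 3 was. Of 15 chromatin partners of RB and E2F6, 10 were fitted lower (median -0.16) and 0 were called in edgeR's quasi-likelihood test, with 1 lower and 1 higher at an unadjusted p below 0.05. That count is near the share of all genes, 6.51% lower and 5.36% higher. Suv39h1, a histone methyltransferase that binds RB, averaged 205 ± 41.5 and 92.9 ± 8.501 CPM (-1.14, SE 0.23), and Sin3b, a scaffold of the repressor complex, averaged 108 ± 14.7 and 177 ± 42.2 CPM (0.72, SE 0.24). DESeq2 called Suv39h1 but not Sin3b.

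Downstream, the 36 listed E2F target genes of S phase were all fitted lower (median -0.91) and 25 of them did not overlap between groups, where 11.3% of all genes were lower with no overlap. None was called in edgeR's quasi-likelihood test (0.127% of all genes lower), while 24 had an unadjusted p below 0.05 (6.51%). DESeq2 called 17 (2.71%) and the likelihood ratio test 16 (2.29%), all lower. Mcm10, a replication initiation factor, averaged 83.6 ± 23.2 and 21.9 ± 5.06 CPM (log2 fold change -1.93, SE 0.33, adjusted p = 0.0880), and Mcm4, a subunit of the replicative helicase, averaged 365 ± 37.3 and 176 ± 18.3 CPM (-1.05, SE 0.20). The 26 listed DREAM target genes of G2 and M phase were likewise all fitted lower, with a median of -1.75, and 24 did not overlap. None was called in edgeR's quasi-likelihood test, 24 had an unadjusted p below 0.05, and DESeq2 and the likelihood ratio test called 20 and 16, all lower, against the same shares of all genes. Kif23, a kinesin of cytokinesis, averaged 100.2 ± 18.2 and 34.1 ± 6.20 CPM (-1.55, SE 0.27), and Cenpe, a kinetochore kinesin, averaged 107 ± 25.4 and 15.5 ± 10.1 CPM (-2.78, SE 0.55). Both target lists were lower in the same libraries as the progenitor markers, and the part of those cells was not tested. Without knockout replicate 6 Cenpe passed edgeR's quasi-likelihood test (-2.37, adjusted p = 0.0417). Cenpe did not pass that test when any other library was left out (adjusted p from 0.1075 to 0.387). The 8 E2F and pocket protein genes, of which E2f1, E2f2, E2f8 and Rbl1 are known E2F targets, had a median of -0.91, with E2f4 and Rbl2 near 0. Rb1 and E2f3, not among those named targets, were at -1.14 (SE 1.17) and -0.66 (SE 0.53). Without knockout replicate 6 the medians were -0.71 for the 8 genes, -0.97 for the S phase list and -1.55 for the G2 and M phase list.

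The same letters were searched in the windows of both target lists. An E2F site of the letters above was found for 13 of 29 S phase genes with a window (44.8%) and 1 of 22 G2 and M phase genes (4.55%). A CHR was found for 4 of 29 (13.8%) and 15 of 22 (68.2%). Of the members, Rbl1 and E2f2 carried an E2F site without a CHR in the window at the deposited start, and E2f3 carried both. E2f8 and Rbl2 carried a CHR without an E2F site of these letters, and E2f1 carried neither. The windows of E2f1 and E2f8 do not cover the deposited start.

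**Figure D4:**
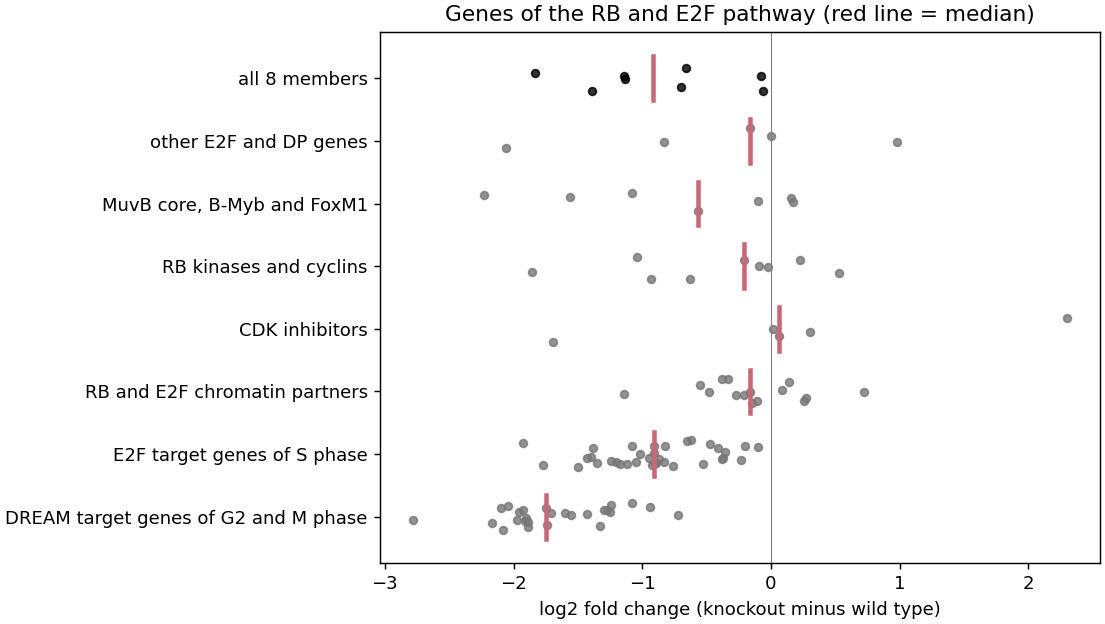
Log2 fold change, knockout minus wild type, of each tested gene in 8 groups (vertical jitter is arbitrary), with the median as a red line. The medians are -0.91 for the 8 E2F and pocket protein genes, -0.91 for S phase targets and -1.75 for G2 and M phase targets, and every tested S, G2 and M phase target lies below 0. With knockout replicate 6 left out (not drawn) these medians are -0.71, -0.97 and -1.55.

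The genes most like each member were those with the smallest root mean square difference of log2 CPM over the 6 libraries, after each gene was centred on its mean, among 10376 genes. E2f8 was nearest to Top2a, the topoisomerase of dividing cells (0.15), and Ncaph, a condensin subunit (0.17). E2f1 was nearest to Slc35e3 (0.07) and Zfp280c (0.11), Rbl1 to Xpo6 (0.07) and Spty2d1 (0.09), and Rbl2 to Whamm (0.08) and Zfp617 (0.11). E2f4 was nearest to Tfeb (0.10) and Setd1a (0.11), E2f3 to Sbk1 (0.14) and Trim65 (0.15), and E2f2 to Atg2b (0.29) and Atp13a3 (0.35). Rb1 was nearest to Chst15 and Clcn2 (0.39 each), which were also nearly absent from knockout replicate 6, with 0.126 and 0.0314 CPM there. The distances grow with a gene's own spread, whose root mean square was 2.36 for Rb1 and 0.35 for E2f4, so they do not rank the matches between members. Among the 8 genes themselves E2f1 and Rbl1 were the closest pair (0.27), and E2f2 and Rb1 the farthest apart (2.65).

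The libraries also differed in markers of cell types, and the part of these differences in the values above was not tested. All 10 LT-HSC markers were fitted higher in knockout, with Procr called, and their summed level was 551 to 1132 CPM in wild type and 1463 to 2423 in knockout. All 10 markers of multipotent and lineage-primed progenitors were fitted lower, with Cd48 called. Monocyte and macrophage markers had 5 of 6 tested members lower, with F13a1 and Ccr2 called, and their sums of 736 to 1021 and 778 to 886 CPM overlapped. Lyz2, the lysozyme gene, had the most of these sums in knockout, at 695 to 869 CPM against 328 to 611 in wild type. Cx3cr1 was at 0 in all knockout libraries. B cell markers had 5 of 6 tested members lower (sums of 112 to 283 and 72.7 to 150 CPM), with Ms4a1 and Blnk showing the smallest p and Ebf1 at 0 in all knockout libraries. Cd79b made up most of the knockout sums, at 59.4 to 138 CPM against 68.5 to 94.4 in wild type. T and NK cell markers had 3 of 4 lower (299 to 570 and 155 to 268 CPM), led by Tcf7 and Nkg7, with Cd4, Cd8a and Tcf7 at 0 in all knockout libraries. Nkg7 alone made up most of these sums in every library, at 289 to 544 CPM in wild type and 140 to 266 in knockout. Cd8a was also at 0 in wild-type replicates 2 and 3, and Cd4 in wild-type replicate 3. Erythroid markers had 4 of 6 higher (667 to 2219 and 2231 to 2665 CPM, mostly Car2, with Epor next by p), and megakaryocyte markers had 4 of 6 higher with overlapping sums (297 to 1448 and 460 to 1664 CPM), led by Gp9 and Cd9. Of these last 4 lists 0 markers were called in edgeR's quasi-likelihood test, with 3, 2, 1 and 0 at an unadjusted p below 0.05 and 2, 2, 0 and 0 called in DESeq2, in the order given. In the LT-HSC, progenitor and monocyte lists, 4 of 10, 8 of 10 and 5 of 6 tested markers had an unadjusted p below 0.05. DESeq2 called 3, 7 and 4 of them. For comparison, edgeR's quasi-likelihood test called 0.143% of all genes and DESeq2 4.4%, and 11.9% had such an unadjusted p, in either direction.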

How the data were processed

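RNA of sorted bone marrow stem cells from 3 wild-type and 3 Mel18 knockout mice was amplified with SMART-Seq v4 and made into Nextera XT libraries, per the labels; these kits do not mark strand. The submitters' processing notes name Trimmomatic 0.40, STAR 2.5, edgeR 3.28.1 and build mm10. The deposited read counts per gene are raw and were made by the authors with featureCounts, per the file's name. Strand setting, multi-mapped reads and any gene filter are not stated in the labels or headers. The same deposited table also holds the authors' log2 fold changes, p-values and fold changes, used only for quotation.

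Counts were filtered with filterByExpr (minimum count 10), scaled with TMM and tested with edgeR 4.0.16 (robust glmQLFit, glmQLFTest; R 4.3.3), knockout against wild type without covariates, with Benjamini-Hochberg adjustment over all tested genes. The standard error is the log2 fold change divided by the square root of F. Alternatives were DESeq2 1.42.0, limma-voom (limma 3.58.1), edgeR's likelihood ratio test, other scalings and filters, and leaving out each library. The code was tested on simulated data. The 8 genes and all lists were chosen with earlier results of these data known. Genes named besides the 8 were Pcgf2, the remaining E2F and DP genes, up to 4 called genes per list (where none was called, the 2 of lowest p), and the 2 genes most like each of the 8. Lin54, Lin52, Lyz2, Aktip, Mpo, Cd34, Flt3, Prtn3, Cd79b and markers at 0 were named after their values were seen. Total counts were 26469336 to 37180701 per library, and intervals cover counting error only.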

Additional observations from a re-analysis of the deposited data

How the results depend on the processing

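Over all genes, 2 were called higher and 16 lower in edgeR's quasi-likelihood test. These counts were 223 and 358 in DESeq2, 144 and 288 in the likelihood ratio test, and 0 and 0 in limma-voom, and 25 were lower with no filter. Leaving out each library in turn gave 0 to 2 higher and 0 to 47 lower, with 0 lower without wild-type replicate 1, 2 or 3 or knockout replicate 4, 4 without knockout replicate 5 and 47 without knockout replicate 6. Of the 8 genes, 0 were called in the quasi-likelihood test and 2 each in DESeq2 and the likelihood ratio test: E2f1 (-1.11 and -1.13) and E2f8 (-1.81 and -1.83). With libraries left out, the log2 fold change of E2f4 ranged from -0.43 to 0.13 and that of Rbl2 from -0.42 to 0.25, changing sign; E2f6 ranged from -0.32 to 0.01, Tfdp2 from -0.27 to 0.27 (limma-voom -0.05) and Pcgf2 from -0.04 to 0.57. Among alternatives added after seeing the data, the knockout minus wild-type difference in log2 ratio was -0.56 without knockout replicate 4 for E2f1 to E2f4 (-1.02 with all libraries) and -0.41 for activators to repressors (-0.86). Without knockout replicate 6 it was -0.95 for Rbl1 to Rbl2 (-0.50) and -0.50 for Rb1 to the other pocket genes (-2.27). The cause of these shifts was not tested. No paired analysis was possible because the groups share no replicate numbers.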
